A study of Mus musculus with 24 samples.

Results

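MiR-204, miR-211 and the miRNAs carried in introns of Htr2c were followed through 24 small RNA libraries of exosome-enriched fractions (EEFs) from mouse hippocampus. The list held 8 mature miRNAs of 1073 miRNA names with reads: mmu-mir-204-5p, mmu-mir-204-3p, mmu-mir-211-5p, mmu-mir-1298-5p, mmu-mir-1298-3p, mmu-mir-448-3p, mmu-mir-764-3p and mmu-mir-764-5p. They were taken by name from the count file of each library, and a name that a file did not list was counted as 0 reads. The list is named for choroid plexus and Htr2c, and its members were chosen by name with their read counts and levels in these 24 libraries already known, so how its members rise and fall together from library to library is given below as a description, with no test.

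EEFs are preparations enriched in exosomes, the small vesicles that cells release, and they were treated with RNase before their RNA was sequenced, so that RNA outside the vesicles would be removed. The animals were male mice of 6 to 9 weeks, labelled C57BL/6 and named in the study's methods as C57BL/6OlaHsd. Status epilepticus, a prolonged seizure, was evoked by 0.3 µg of kainic acid (KA) in 0.2 µl, delivered through a cannula into the right amygdala. Controls received phosphate-buffered saline in its place, and all mice were given midazolam at 8 mg/kg 40 min later. Hippocampi were taken at 24 h or 2 weeks, and EEFs were prepared either by ultracentrifugation (UC) or with a precipitation kit. In the study's check of EEFs, a marker of endoplasmic reticulum was found with both methods and a mitochondrial marker with UC only. The exosome marker Flotillin1 was more enriched with UC. The paper names contaminants as a possible source of part of the miRNAs. The 8 groups, control and KA at each time with each method, held 3 libraries each. Every library was a pool of hippocampi from several mice, so the spread between libraries is that between pools, and fewer vesicles of a given origin cannot be told apart from fewer copies of a miRNA per vesicle.

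The choroid plexus is the secretory epithelium that lines parts of the brain ventricles and makes cerebrospinal fluid, and it lies beside the hippocampus in the lateral ventricle. Htr2c encodes the serotonin 2C receptor, which is abundant in this epithelium and is also made by neurons. MiR-204 is known from choroid plexus and from the retinal pigment epithelium, and its host gene Trpm3 encodes a cation channel. MiR-211 is its close relative, hosted by Trpm1 and known from pigment cells. A hairpin precursor gives rise to a 5p and a 3p strand, of which one is usually the more abundant, and bases 2 to 8 of a strand, its seed, do most of the pairing with target mRNAs.

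In the GRCm38 annotation (GENCODE), Mir204 lay at chr19:22750605-22750672 in an intron of Trpm3, and Mir211 at chr7:64205806-64205911 in an intron of Trpm1. Htr2c spanned chrX:146962513-147197277 and held 5 miRNA hairpins on its own strand, within 156.1 kb of its 234.8 kb. In order from the 5′ end these were Mir764 (chrX:147002259-147002366), Mir1912 (chrX:147009441-147009527), Mir1264 (chrX:147010601-147010686), Mir1298 (chrX:147064905-147065002) and Mir448 (chrX:147158210-147158321). None of the 7 hairpins overlapped an annotated exon of its host.

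The sequences below, from RefSeq (GRCm38.p6), are the strands whose levels are compared in what follows, together with miR-211-5p as the relative of miR-204-5p. Each is written 5′ to 3′ with its seed in capitals.
mmu-mir-204-5p: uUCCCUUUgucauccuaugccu
mmu-mir-211-5p: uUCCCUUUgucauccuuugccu
mmu-mir-204-3p: gCUGGGAAggcaaagggacgu
mmu-mir-1298-5p: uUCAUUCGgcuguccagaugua
mmu-mir-1298-3p: cAUCUGGGcaacugauugaacu
mmu-mir-448-3p: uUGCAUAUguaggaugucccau
mmu-mir-764-3p: aGGAGGCCauaguggcaacugu
mmu-mir-1912-3p: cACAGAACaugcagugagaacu
MiR-204-5p and miR-211-5p shared their seed and 21 of 22 bases, and differed by A17U (the base of miR-204-5p, its position from the 5′ end, then the base of miR-211-5p). The Htr2c-intron strands each had a seed of their own, shared neither with each other nor with miR-204.

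The libraries were shallow, and the depth differed between the methods. UC libraries held 85436 to 169639 counts assigned to miRNAs (median 132335) and kit libraries 154884 to 676726 (median 277043), so that a single read was worth 5.89 to 11.7 CPM (a read count scaled to a fixed library total) with UC and 1.48 to 6.46 with the kit. Levels below are CPM scaled by trimmed mean of M values (TMM) over the 24 libraries.

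Of the 8 miRNAs, 7 had at least 1 read. MiR-204-5p led with 7483 reads, 61.6% of the reads of the list, followed by miR-1298-5p with 2921, miR-1298-3p with 885 and miR-448-3p with 575, and each of these was found in all 24 libraries. MiR-204-3p had 180 reads and miR-764-3p 99, each in 23 libraries. MiR-211-5p had 3 reads in 3 libraries. It differs from miR-204-5p by 1 base, and how reads that match more than 1 hairpin were assigned is not given in the sources used here. MiR-764-5p had 0 reads of 5371420, which allows a level of up to 0.559 CPM by counting error alone. Of the other strands of these hairpins and of Mir1264 and Mir1912, miR-1912-3p had 167 reads in 22 libraries, miR-448-5p 29, miR-1264-3p 13 and miR-1912-5p 2, and miR-211-3p and miR-1264-5p had 0.

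MiR-204-5p had the highest mean level of the list with both methods, at 834 ± 730 CPM with UC (rank 78 of 859 miRNA names with reads) and 1706 ± 681 CPM with the kit (rank 58 of 961; SD, n = 12 each). Second came miR-1298-5p at 310 ± 133 CPM in UC libraries and 625 ± 400 CPM in kit libraries. Their ranges over libraries overlapped with both methods, with UC from 258 to 3040 CPM for miR-204-5p and from 110 to 578 CPM for miR-1298-5p. The other strand of the hairpin, miR-1298-3p, stood at 213 ± 71.4 and 145 ± 49.9 CPM. MiR-448-3p came next with 76.3 ± 31.6 and 111 ± 55.7 CPM, and its range overlapped that of miR-1298-3p with both methods. MiR-204-3p stood at 62.4 ± 30.6 CPM in UC libraries, where its range overlapped that of miR-448-3p, and at 20.5 ± 8.51 CPM with the kit, where it overlapped that of miR-764-3p. MiR-764-3p was the lowest of the 6 strands found in most libraries, at 22.6 ± 13.3 and 17.6 ± 8.88 CPM. Libraries were made by ligation, whose preference for some sequences was not corrected, so the order between strands is that of reads and not of molecules.

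**Figure D1:**
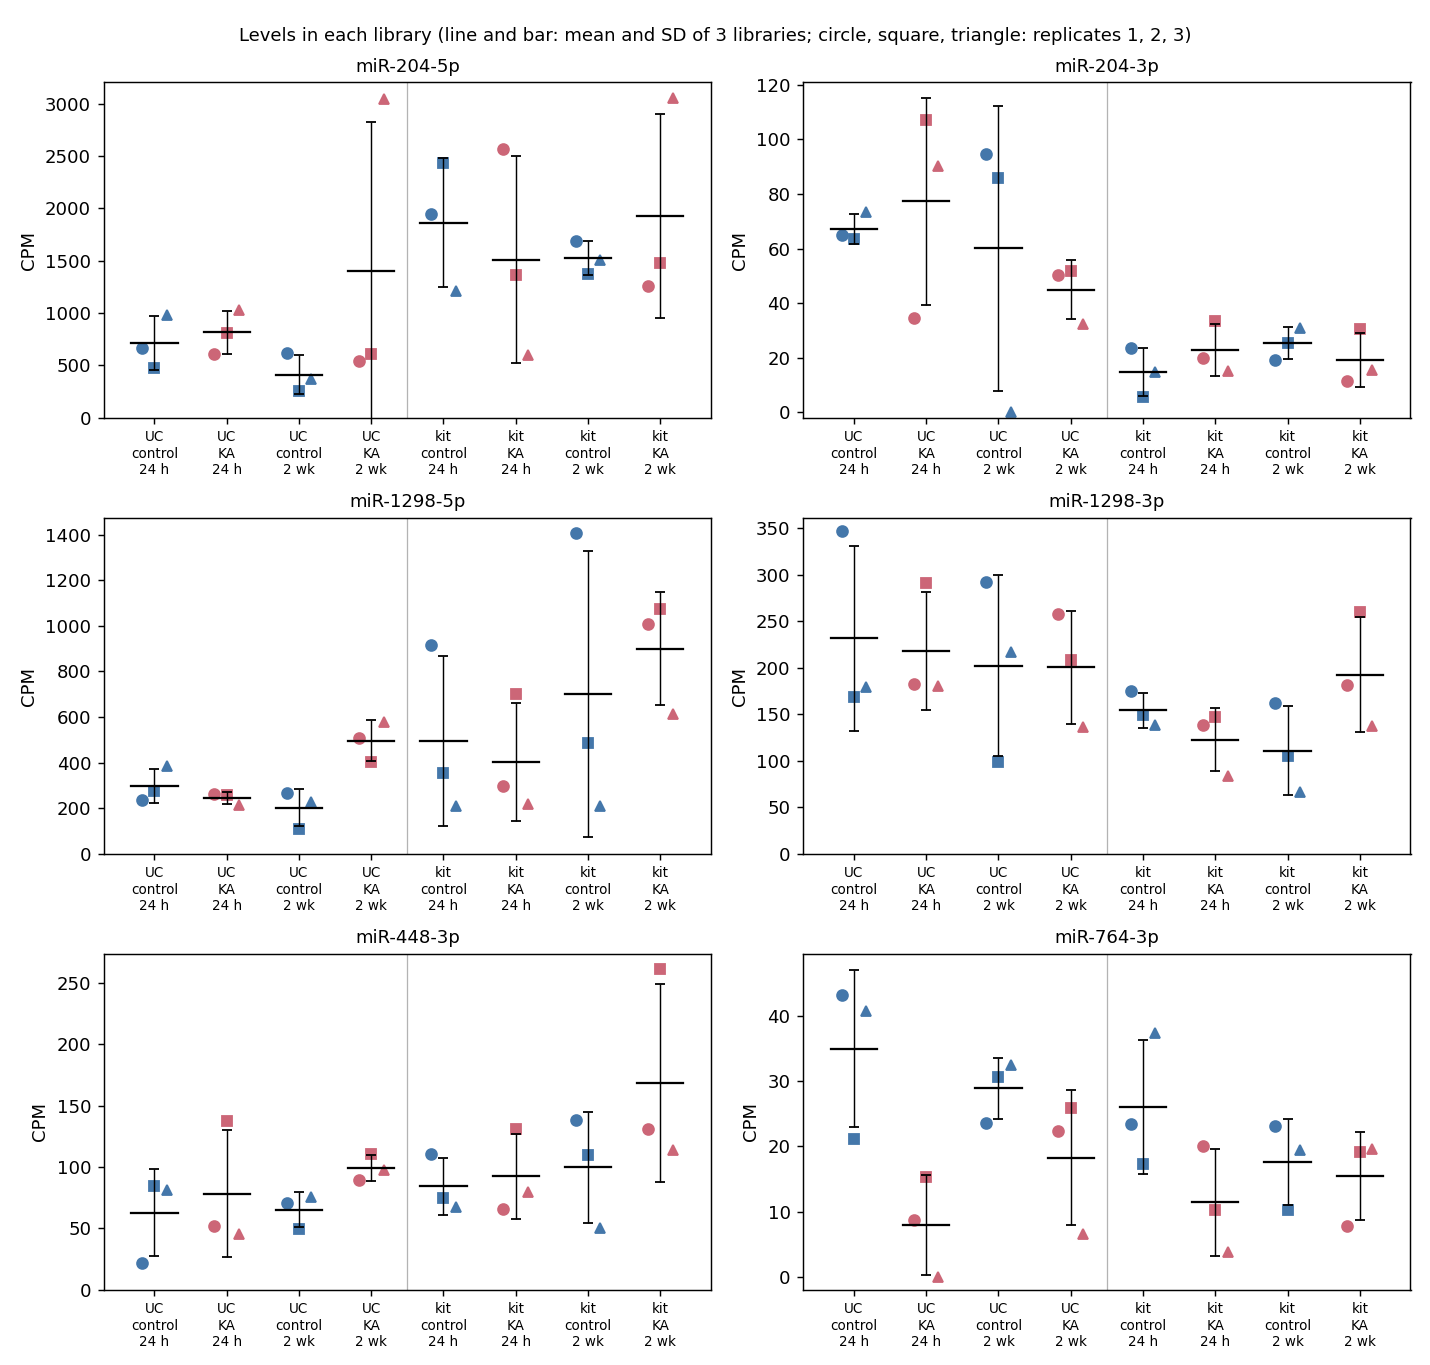
Level (CPM, linear axis) of 6 of the miRNAs in each of the 24 libraries, by method, treatment and time. Control libraries are blue and KA libraries red; circles, squares and triangles are replicates 1, 2 and 3, and lines with bars give the mean and SD of 3 libraries (the bar of miR-204-5p in UC KA at 2 weeks is cut at 0). The UC KA library of replicate 3 at 2 weeks stands at 3040 CPM of miR-204-5p, against at most 1026 CPM in the other UC libraries.

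How much of the spread between libraries counting alone would give depended on the strand. The coefficient of variation of miR-204-5p over the 12 UC libraries was 87.5%, where its mean read number gives 9.50% from counting, and with the kit it was 39.9% against 4.42%. Without the UC KA library of replicate 3 at 2 weeks the UC value was 37.2%. For miR-1298-5p these values were 42.8% against 15.4% with UC and 64.1% against 7.05% with the kit. For miR-448-3p they were 41.4% against 31.1% with UC and 50.0% against 16.3% with the kit. At the low end the spread was nearer to that of counting. It was 59.0% against 58.6% with UC and 50.4% against 43.3% with the kit for miR-764-3p, and 49.0% against 35.0% and 41.4% against 38.3% for miR-204-3p. A weak correlation that involves either of these strands is therefore no finding. MiR-1912-3p, which is not in the list, had 0 to 6 reads per UC library and 0 to 42 per kit library (median 5). Its values were 54.4% against 56.2% with UC, where the same holds, and 84.9% against 30.5% with the kit.

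Whether miR-204 and the Htr2c-intron miRNAs moved together was described within each method, since UC and kit libraries are separate sets. The level of miR-204-5p was set against the summed level of miR-1298-5p, miR-1298-3p, miR-448-3p, miR-764-3p and miR-764-5p, both as log2(CPM + 2). In the UC libraries the sum ran from 288 CPM, in the control library of replicate 2 at 2 weeks, to 878 CPM, in the KA library of replicate 1 at 2 weeks. The 3 UC KA libraries at 2 weeks, at 747, 819 and 878 CPM, were the highest of the 12, and the next stood at 704 CPM.

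Over the 12 UC libraries, Pearson's r between miR-204-5p and the sum was 0.54 and Spearman's rho 0.36. This relation rested on few libraries. Leaving out the control library of replicate 2 at 2 weeks, the lowest in both measures, gave 0.29, and leaving out the 2 libraries farthest from the median of miR-204-5p, that one and the KA library of replicate 3 at 2 weeks, gave -0.079. It also rested on 1 strand. With miR-1298-5p alone r was 0.66, and with the Htr2c-intron strands other than miR-1298-5p it was 0.022. Taken as deviations from the means of the 4 UC groups, r was 0.33.

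In the kit libraries, which were deeper, the sum ran from 345 to 1729 CPM, with both ends in the control group at 2 weeks. Pearson's r with miR-204-5p was 0.23 and Spearman's rho 0.15, and r was 0.13 for deviations from group means. Leaving out the KA library of replicate 3 at 24 h, which was lowest for miR-204-5p (604 CPM), gave -0.092, and leaving out the 2 farthest libraries gave -0.14. The kit library highest for miR-204-5p, the KA library of replicate 3 at 2 weeks with 3048 CPM, had a summed level of 886 CPM, near the middle of the range. The library with the highest sum had 1691 CPM of miR-204-5p. Leaving out the ends of the range of miR-204-5p can lower r whatever the relation, so these last values show how much r depends on such libraries and not that a relation is absent.

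**Figure D2:**
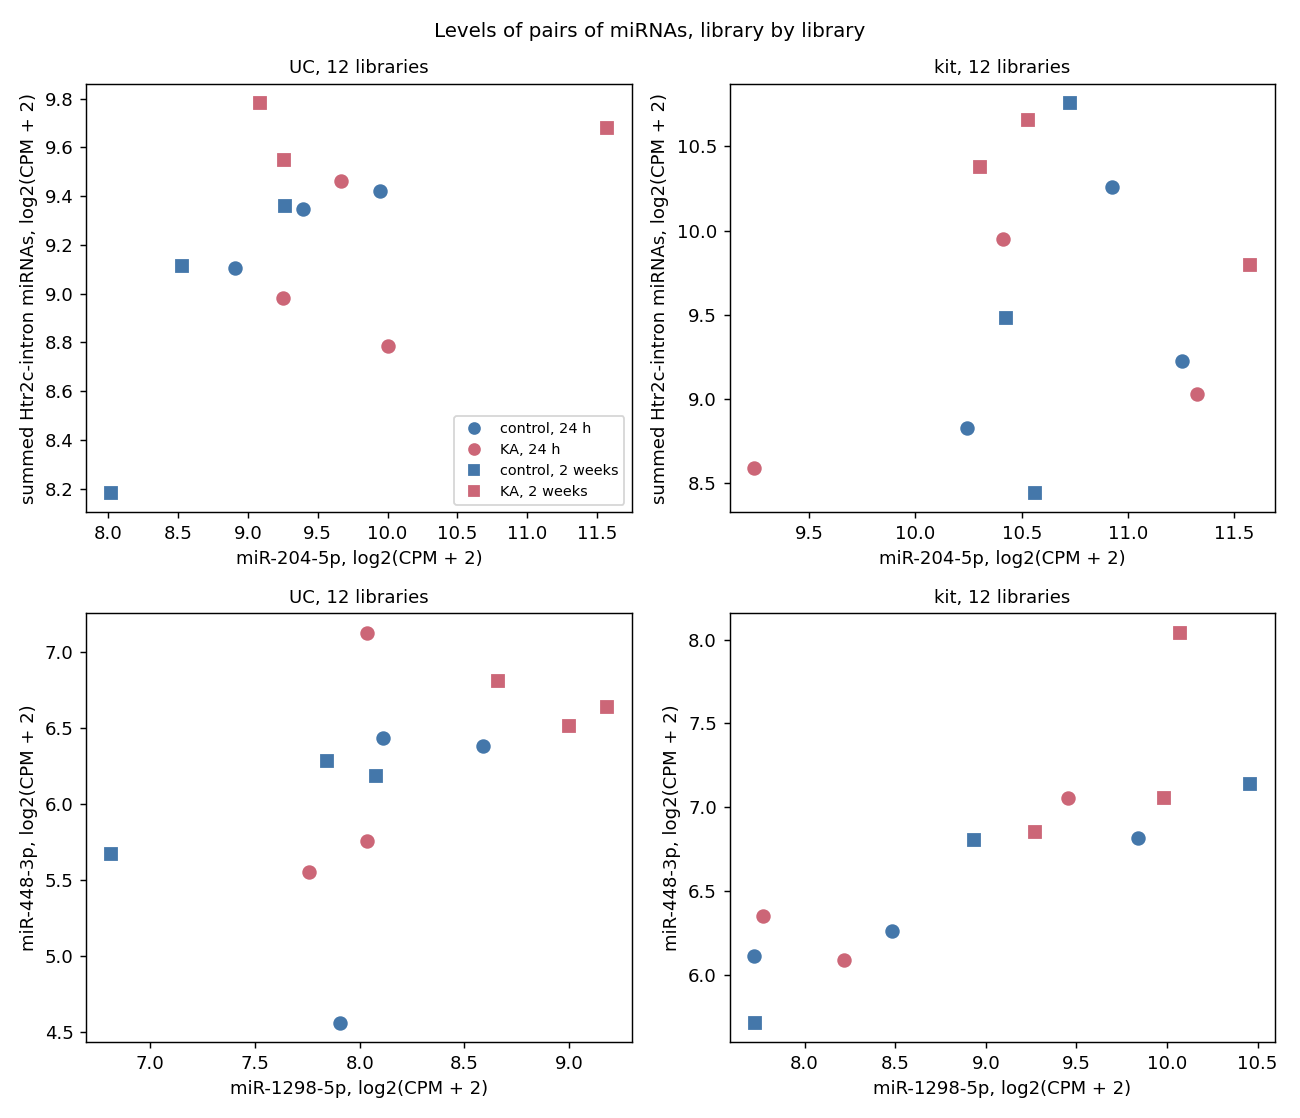
Levels of pairs of miRNAs as log2(CPM + 2), with UC on the left and the kit on the right; each point is a library, blue for control and red for KA, circles for 24 h and squares for 2 weeks. The upper panels set miR-204-5p against the summed Htr2c-intron miRNAs (r = 0.54 with UC and 0.23 with the kit), and the lower panels set miR-1298-5p against miR-448-3p (r = 0.50 with UC and 0.86 with the kit).

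Among the Htr2c-intron miRNAs themselves, the kit libraries showed a group that moved together, though other miRNAs came about as close to its members. Pearson's r between miR-1298-5p and miR-448-3p was 0.86 (Spearman's rho 0.91, n = 12), and it ranged from 0.83 to 0.91 when single libraries were omitted. Between miR-1298-5p and miR-1298-3p, the strands of one hairpin, r was 0.74. MiR-1912-3p, which is not in the list but comes from an intron of the same gene, had an r of 0.74 with miR-1298-5p and 0.73 with miR-448-3p. Of miRNAs not from Htr2c, miR-34c-5p had an r of 0.77 with miR-1298-5p in the same libraries. Let-7i-5p and miR-154-5p had 0.70 each with miR-448-3p. All miRNAs were not ranked in the kit libraries alone. For deviations from group means the r of miR-1298-5p was 0.83 with miR-448-3p, 0.83 with miR-1298-3p and 0.85 with miR-1912-3p. Without the 2 libraries farthest from the median of the first strand, r was 0.79 between miR-1298-5p and miR-448-3p, 0.75 between miR-1298-5p and miR-1298-3p, 0.71 between miR-1298-5p and miR-1912-3p and 0.81 between miR-448-3p and miR-1912-3p. Between miR-1298-3p and miR-448-3p it fell from 0.77 to 0.38, and between miR-1298-3p and miR-1912-3p, at 0.28 over all libraries, it was 0.073. The kit library numbered 3 was the lowest of its group for miR-1298-5p in all 4 groups, at 209, 210, 216 and 615 CPM, and the labels do not say what the number marks. With the means of the replicate numbers removed, r was 0.89 between miR-1298-5p and miR-448-3p, 0.66 between miR-1298-5p and miR-1912-3p and 0.57 between the strands of miR-1298.

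MiR-764-3p could not be placed inside or outside this group, since its spread was near that of counting. Its r was 0.038 with miR-1298-5p and -0.10 with miR-448-3p in the kit libraries, where it had 1 to 10 reads. Its highest r there, 0.60, was with miR-204-5p, and this had the opposite sign with UC (-0.49).

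In the UC libraries the same pairs were looser. The r of miR-1298-5p was 0.50 with miR-448-3p (rho 0.68), 0.23 with miR-1298-3p and 0.16 with miR-1912-3p. An r of 0.73 between miR-448-3p and miR-1912-3p fell to -0.064 without the 2 farthest libraries. Between the strands of miR-204, r was 0.17 with UC (-0.37 to 0.41 with single libraries omitted, and 0.71 without the 2 farthest) and -0.15 with the kit (-0.34 without the 2 farthest), at 0 to 14 and 1 to 16 reads of miR-204-3p per library, so no relation could be read from them. At 2 to 18 reads of miR-448-3p per UC library, a relation as close as that in the kit libraries may not be detectable.

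**Figure D3:**
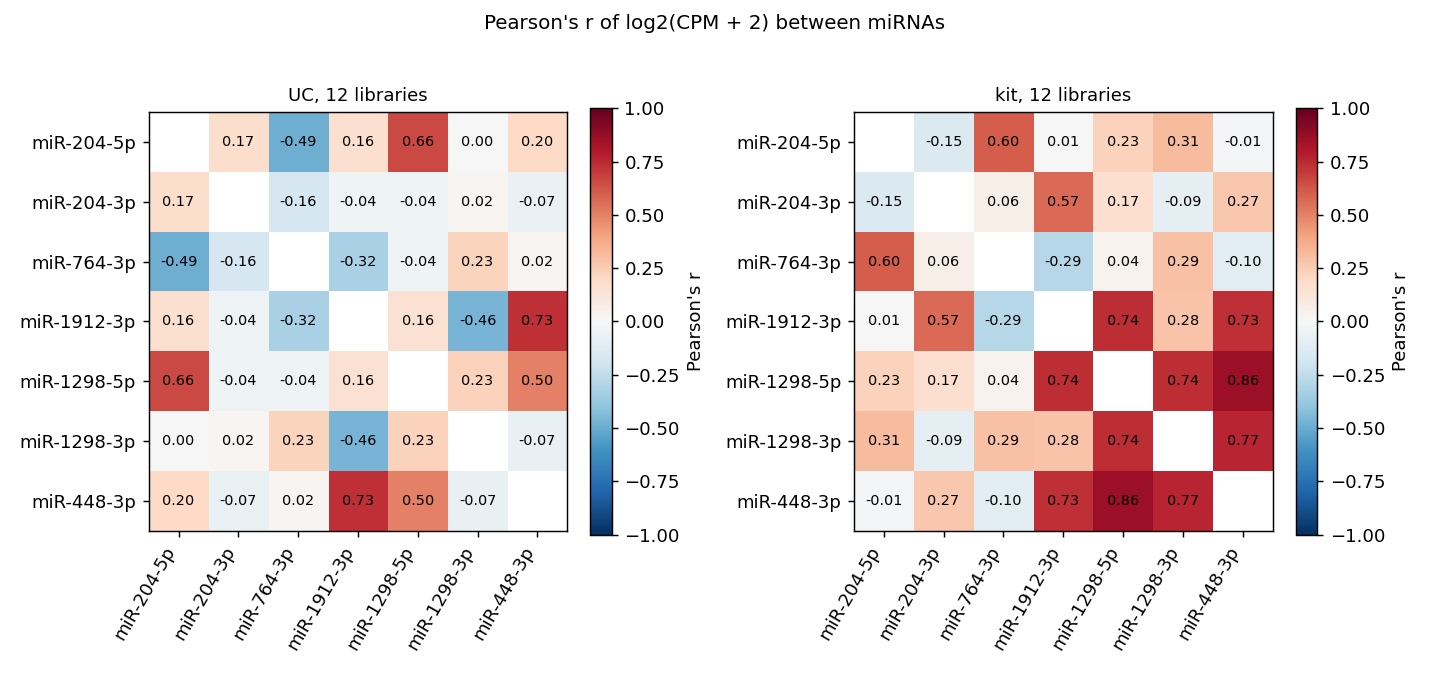
Pearson's r of log2(CPM + 2) between 7 strands over the 12 UC libraries (left) and the 12 kit libraries (right), on a scale from -1 (blue) to 1 (red). In the kit libraries miR-1298-5p, miR-1298-3p, miR-448-3p and miR-1912-3p form a block in which only the pair of miR-1298-3p and miR-1912-3p is under 0.7 (0.28), and miR-204-5p has r of -0.012 to 0.31 with these 4. MiR-34c-5p, not shown and not from Htr2c, had r of 0.77 with miR-1298-5p in these libraries.

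MiR-1298-5p, miR-448-3p and miR-204-5p were each compared with the 225 other miRNAs that had at least 10 reads in at least 12 libraries. These comparisons used deviations from the mean of each method over 24 libraries. The miRNA most like miR-1298-5p was miR-448-3p (r = 0.69), and the miRNA most like miR-448-3p was miR-1298-5p. Next for miR-1298-5p came miR-34c-5p (0.57), miR-877-5p (0.55), miR-1298-3p (0.53) and miR-92a-3p (0.53). Without the UC KA library of replicate 3 at 2 weeks, miR-34c-5p (0.73) stood above miR-448-3p (0.68) in likeness to miR-1298-5p. For miR-448-3p, miR-532-5p (0.67) and miR-30d-3p (0.66) came close behind miR-1298-5p, and miR-1298-3p was only the 55th (0.33). MiR-204-5p was most like miR-192-5p (0.72), miR-181a-1-3p (0.71), miR-138-1-3p (0.71), miR-99a-5p (0.66) and miR-99b-5p (0.64). Without the UC KA library of replicate 3 at 2 weeks these 5 values were 0.60, 0.58, 0.65, 0.44 and 0.40. MiR-1298-5p was only the 23rd most like miR-204-5p (r = 0.40), miR-1298-3p the 71st (0.13) and miR-448-3p the 73rd (0.12). These correlations share libraries, and depth differed between them. Since r between the 2 sets was 0.23 with the kit and rested with UC on few libraries and on 1 strand, they are named here by their host genes. Whether they share a source was not tested.

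Summed levels of miRNAs in lists named for cell types were set beside these. Whether a list is specific to its cell type, or shared with choroid plexus, was not tested. For multiciliated cells (miR-34b, miR-34c and miR-449, 7 of 7 strands with reads in UC and 6 in kit libraries, miR-449b being at 0 with the kit) the sum ran from 1154 to 3505 CPM with the kit, and its r was 0.79 with miR-1298-5p and 0.50 with miR-204-5p. With UC it ran from 819 to 2377 CPM, with r of 0.33 and -0.058. Most of this sum was 1 strand, miR-34c-5p. In kit libraries the mean of miR-34c-5p was 2071 CPM and the median of the sum 2024 CPM. In UC libraries they were 1350 and 1363 CPM. The r of miR-34c-5p alone with miR-1298-5p was 0.77 (kit) and 0.30 (UC), so the r of the sum mostly reflects that strand, named above, and not 7 strands. For the miR-200 family of epithelia, which most epithelial cells make, 4 of 5 strands had reads and miR-200c-3p was at 0. Its sum was 0 to 63.4 CPM in UC libraries and 23.5 to 66.1 CPM in kit libraries, and its r with miR-1298-5p was -0.23 and -0.58. For oligodendrocytes r with miR-1298-5p was 0.62 with UC and 0.58 with the kit, and with miR-204-5p 0.44 and -0.29. For neurons these values were 0.35 and -0.39 with miR-1298-5p, and 0.52 and 0.36 with miR-204-5p. For red blood cells they were 0.25 and 0.094 with miR-1298-5p, and 0.60 and 0.35 with miR-204-5p. The UC KA library of replicate 3 at 2 weeks was the highest UC library in miR-204-5p and in the sums of neurons and red blood cells. The UC values of 0.52 and 0.60 include that library and were not computed without it. For endothelium and for microglia and leukocytes, r with either strand lay between -0.18 and 0.30. The part of these cells in the levels of miR-204-5p and the Htr2c-intron miRNAs was not tested.

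The comparison of KA with control asked whether status epilepticus changed the level of these miRNAs in EEFs. With UC at 2 weeks, miR-1298-5p rose by a log2 difference of 1.39, with all 3 KA libraries above the controls. MiR-204-5p passed the test at 1.88, but 2 of its 3 KA libraries lay within the range of the controls, and the value was 0.48 without the other one. Neither was called by limma-voom, and the other strands did not pass. At 24 h with UC, and at both times with the kit, no strand of the list passed. Of the 8 miRNAs, 6 passed the filter on low values (CPM over 1 in at least 6 libraries of a method), and miR-211-5p and miR-764-5p did not.

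In the UC libraries at 2 weeks, miR-1298-5p was at 268, 110 and 227 CPM in the controls and at 509, 403 and 578 CPM after KA. The lowest KA library was above the highest control. In reads these were 18 to 34 against 62 to 91. The log2 difference was 1.39 (SE 0.37, 95% interval 0.67 to 2.12; adjusted p = 0.0473 by the quasi-likelihood test of edgeR, Benjamini-Hochberg adjusted over 420 miRNAs).

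MiR-204-5p was at 615, 258 and 368 CPM in the same controls and at 543, 610 and 3040 CPM after KA. The rise lay in the KA library of replicate 3, and the other 2 stood within the range of the controls. The log2 difference was 1.88 (SE 0.43; adjusted p = 0.0149 by edgeR), and without that library it was 0.48 (adjusted p = 0.884 by edgeR). In that library miR-204-3p, from the same hairpin, was at 32.5 CPM, the lowest of the KA group. This was 5 reads against 9 and 8 in the other 2, too few to tell them apart.

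That library was also at an end of the UC range in other summed miRNAs. Among the 12 UC libraries it was the highest in the summed miRNAs of neurons (miR-124, miR-128, miR-9, miR-218 and miR-138, 5 of 5 with reads; 45815 CPM, range 33142 to 45815), of red blood cells (miR-451a, miR-144 and miR-486, 3 of 4 with reads, miR-486a-5p being at 0; 1364 CPM, range 286 to 1364) and of microglia and leukocytes (miR-223 and miR-142, 3 of 3; 104 CPM, range 7.88 to 104). It was the lowest in those of multiciliated cells, at 819 CPM. In those of oligodendrocytes (miR-219a-2 and miR-338, 2 of 2; 8037 CPM, range 6186 to 10185), of endothelium (miR-126a, 2 of 2; 481 CPM, range 244 to 563) and of epithelia (13.0 CPM) it was within the range. The part of these cells in its level of miR-204-5p was not tested.

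Of the 420 miRNAs tested in UC libraries at 2 weeks, edgeR called 0.952% at an adjusted p under 0.05 and 7.86% at an unadjusted one. Of the 6 listed miRNAs tested, it called 2 by either rule. The log2 differences had a median of 0.37 over the 6 listed strands tested, against 0.024 over all 420. The calls did not hold by every tool: limma-voom called 0 of the list at an adjusted p under 0.05 and 2 unadjusted, and DESeq2 called miR-1298-5p (adjusted p = 0.0361) but not miR-204-5p (0.0556). Leaving out 1 library at a time, miR-1298-5p stayed between 1.12 and 1.70 but was called in 2 of 6 fits.

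For the strands that did not pass at 2 weeks with UC, the values were as follows. MiR-448-3p was at 49.1 to 75.8 CPM in controls and 89.5 to 110 CPM after KA, with no overlap, and its log2 difference was 0.68 (95% interval -0.37 to 1.72) at 7 to 17 reads per library. MiR-1298-3p, the other strand of the miR-1298 hairpin, was at 98.2 to 292 CPM in controls and 136 to 257 CPM after KA, a log2 difference of 0.073 (95% interval -0.73 to 0.87). The log2 difference was -0.48 for miR-204-3p and -0.59 for miR-764-3p.

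At 24 h with UC, the log2 difference between KA and control was 0.22 for miR-204-5p (95% interval -0.61 to 1.04), -0.27 for miR-1298-5p (-1.004 to 0.47) and 0.31 for miR-448-3p (-0.79 to 1.41). None of the list was called by edgeR at an adjusted or an unadjusted p under 0.05 (limma-voom called 0 and 1, DESeq2 0 and 0), where 0.476% and 2.86% of all 420 miRNAs were. MiR-764-3p was at 43.3, 21.1 and 40.7 CPM in controls and at 8.67, 15.3 and 0 CPM after KA, which did not overlap. These are 3 to 5 reads against 0 to 2, and the log2 difference of -1.82 had an SE of 0.91 (unadjusted p = 0.0519, adjusted p = 1.00 by edgeR).

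With the kit, miR-764-3p at 24 h was at 23.5, 17.2 and 37.4 CPM in controls and at 20.1, 10.3 and 3.80 CPM after KA, so that the groups overlapped. Its log2 difference was -1.11 (95% interval -2.34 to 0.12; adjusted p = 0.839 by edgeR). MiR-204-5p at 24 h was at 1942, 2437 and 1211 CPM in controls and at 2562, 1361 and 604 CPM after KA, a log2 difference of -0.30. MiR-1298-5p was at 916, 356 and 209 CPM in controls and at 296, 700 and 216 CPM after KA, a log2 difference of -0.27. None of the list was called at an adjusted or an unadjusted p under 0.05 by edgeR, limma-voom or DESeq2, and edgeR called 0% and 4.62% of 520 miRNAs.

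At 2 weeks with the kit, miR-1298-5p was at 1406, 488 and 210 CPM in controls and at 1010, 1074 and 615 CPM after KA. The groups overlapped widely, and the log2 difference was 0.30 (95% interval -0.79 to 1.40), an interval that holds both 0 and the value found with UC. MiR-204-5p was at 1691, 1372 and 1510 CPM in controls and at 1260, 1478 and 3048 CPM after KA, so that 1 library again stood above the others. Its log2 difference was 0.22 (95% interval -0.59 to 1.04). MiR-1298-3p had a log2 difference of 0.71 (95% interval -0.055 to 1.47) and miR-448-3p of 0.66 (-0.19 to 1.51). None of the list was called by any of the 3 tools, adjusted or unadjusted, where edgeR called 0% and 2.69% of 520 miRNAs.

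**Figure D4:**
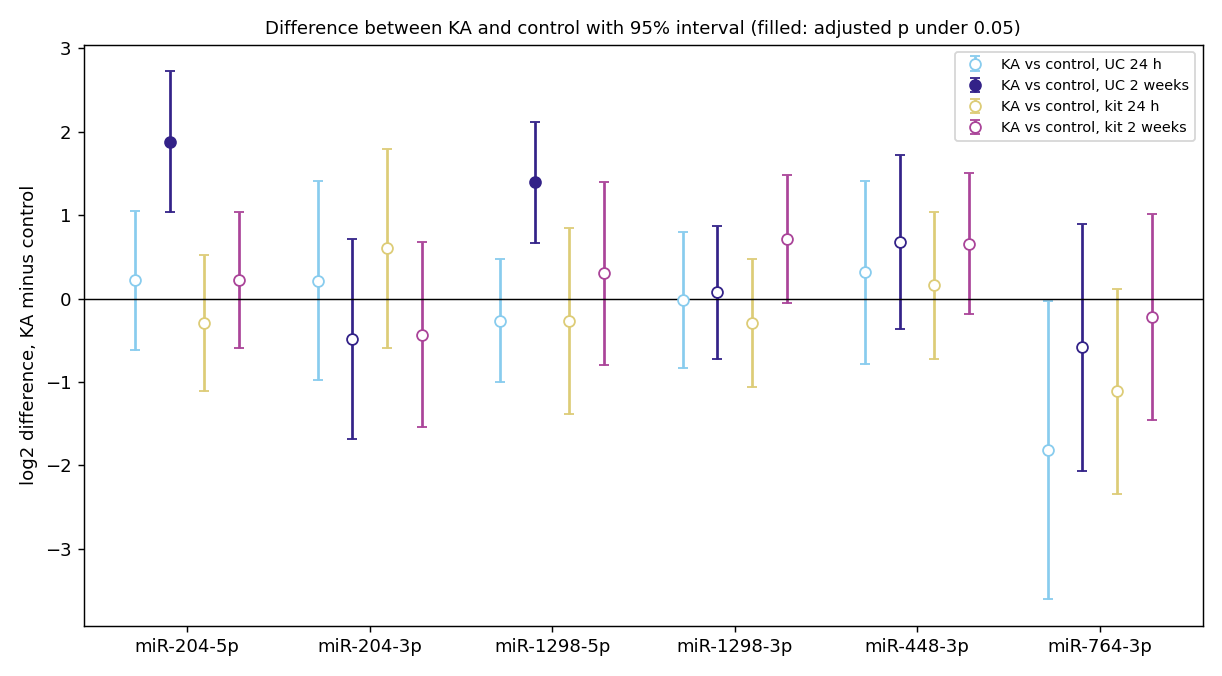
Log2 difference between KA and control libraries (3 against 3) for the 6 miRNAs tested, for UC and kit at 24 h and 2 weeks. The 95% intervals are normal approximations derived from the edgeR test. That of miR-764-3p with UC at 24 h ends at -0.031, where edgeR gave an unadjusted p of 0.0519. Filled points have an adjusted p under 0.05, and these are miR-204-5p (1.88) and miR-1298-5p (1.39) with UC at 2 weeks.

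Whether the effect of KA differed between the times was tested as an interaction. With UC, the difference at 2 weeks exceeded that at 24 h by 1.66 on the log2 scale for miR-1298-5p (SE 0.53, unadjusted p = 0.00278, adjusted p = 0.277 by edgeR) and by 1.66 for miR-204-5p (SE 0.60, unadjusted p = 0.00789, adjusted p = 0.301 by edgeR). Without the UC KA library of replicate 3 at 2 weeks, the value of miR-204-5p was 0.30 (unadjusted p = 0.519 by edgeR). None of the list passed the adjusted threshold, by edgeR, limma-voom or DESeq2, where edgeR called 0.476% of all 420 miRNAs. At an unadjusted p under 0.05, edgeR and DESeq2 counted 2 of the list and limma-voom 1. With the kit, 0 passed the adjusted threshold by any of the 3 tools (unadjusted, 0 by edgeR and limma-voom and 1 by DESeq2), and edgeR called 0% of 520. A change present at one time only was therefore not shown for these miRNAs.

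Other strands from the Htr2c introns were too rare for most comparisons. MiR-1912-3p had log2 differences between KA and control of 1.05 at 24 h and 0.33 at 2 weeks with UC, and of 1.05 and -0.14 with the kit, none of which passed. MiR-1264-3p had 1, 2 and 3 reads in the kit KA libraries at 24 h and 0 in the 3 controls (unadjusted p = 0.0268, adjusted p = 0.839 by edgeR), a difference at the limit of counting.

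The comparison of the kit with UC, over all 24 libraries with treatment and time in the model, split the strands of the hairpins. Kit and UC libraries were separate sets, pooled from different numbers of hippocampi, so the method cannot be told apart from the library set. The 5p strands of miR-204 and miR-1298 were higher with the kit, and their 3p strands were lower. MiR-204-5p was higher by 1.14 on the log2 scale (SE 0.24, adjusted p = 4.89e-05 by edgeR) and miR-1298-5p by 1.02 (SE 0.24, adjusted p = 0.000373 by edgeR). MiR-204-3p fell by 1.53 (SE 0.31, adjusted p = 3.58e-05 by edgeR) and miR-1298-3p by 0.56 (SE 0.21, adjusted p = 0.0228 by edgeR). The call of miR-1298-3p was lost without the libraries of replicate 1 (adjusted p = 0.110 by edgeR) or of replicate 3 (0.139). MiR-448-3p (0.52, adjusted p = 0.0704) and miR-764-3p (-0.30, adjusted p = 0.486 by edgeR) did not pass. The ranges of the methods overlapped for every strand. Differences between the methods were common, with 52.6% of 603 miRNAs called by edgeR, against 4 of the 6 listed miRNAs tested here by each of the 3 tools. The median log2 difference of the 6 strands tested was 0.107 against 0.108 for all 603. MiR-448-5p, the other strand of its hairpin, had 28 reads in 9 kit libraries and 1 read in 1 UC library, or 4.88 to 10.6 CPM and 0.0162 to 3.57 CPM by the 95% Poisson interval of the summed reads (adjusted p = 0.00397 by edgeR).

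The ratio of the strands of a hairpin is taken within a library, so that the scaling factor cancels. It does not separate the method from the set of libraries. At few reads its value still depends on what is added to each count. For miR-204, the log2 ratio of 5p to 3p reads, with 0.5 added to each, was 3.64 ± 1.37 in UC libraries and 6.25 ± 0.90 in kit libraries (SD, n = 12 each). Summed over libraries, 1331 reads of 5p stood against 98 of 3p with UC, a ratio of 13.6, and 6152 against 82 with the kit, a ratio of 75.0. With 1 read added in place of 0.5, the difference of the log2 ratios was 2.63. The difference with 0.5, 2.61, had p = 4.0e-05 by a permutation test of the libraries (two-sided, 100000 permutations, adjusted p = 0.000163 over 57 hairpins).

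For miR-1298, the log2 ratio was 0.49 ± 0.70 with UC and 1.88 ± 0.70 with the kit, from 506 against 325 reads (ratio 1.56) and 2415 against 560 reads (ratio 4.31). The difference was 1.38 (p = 0.00015 by the same permutation test, adjusted p = 0.000389). The strands of miR-1298 were thus closer in reads in UC libraries than in kit libraries. The 3p strand had more reads in 3 of 12 UC libraries, and the 5p strand led in all 12 kit libraries.

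The ranges of the 2 methods overlapped for both hairpins. For miR-204 the UC libraries ran from 1.55 to 6.41 and the kit libraries from 5.15 to 8.14, and the UC libraries that reached the kit range were the control library of replicate 3 at 2 weeks (6.11, with 0 reads of 3p) and the KA library of replicate 3 at 2 weeks (6.41). For miR-1298 they ran from -0.53 to 2.06 and from 0.59 to 3.10. The KA library of replicate 3 at 2 weeks was the highest UC library in both ratios. Leaving out the libraries of one replicate number at a time gave 2.18 to 3.34 for miR-204 and 1.05 to 1.79 for miR-1298.

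A higher 5p share with the kit was not particular to these hairpins. Of 57 hairpins with reads of both strands in at least 10 of 12 libraries of each method, a rule set after the data were seen, the ratio was higher with the kit at an adjusted p under 0.05 in 28 (49.1%) and lower in 14, with a median difference of 0.61. Ordered by the difference, miR-204 had rank 3 and miR-1298 rank 12 of the 57.

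**Figure D5:**
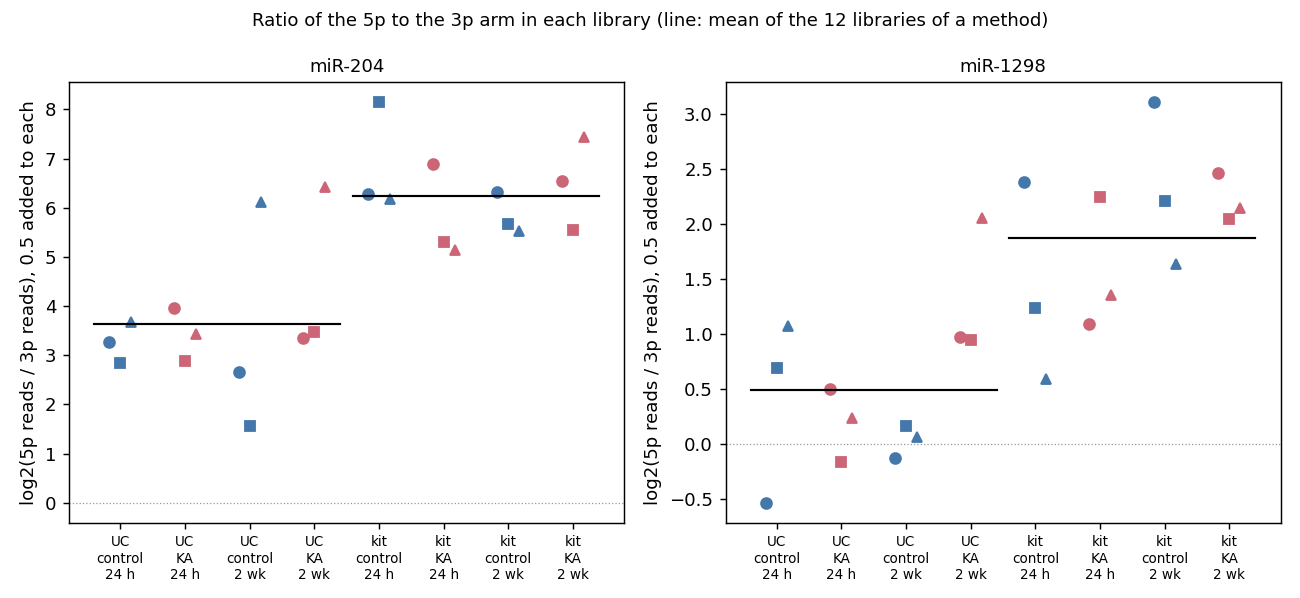
Log2 ratio of 5p to 3p reads (0.5 added to each) of the miR-204 and miR-1298 hairpins in each library; colours and symbols are as in the plot of levels, and lines give the mean of the 12 libraries of a method. The means are 3.64 and 6.25 for miR-204 and 0.49 and 1.88 for miR-1298, with UC and the kit.

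Read ends, taken from the table of altered reads of each library, set miR-448-3p apart. For miR-204-5p, 97.9% of 1331 UC reads and 97.6% of 6152 kit reads carried no alteration, and for miR-1298-5p the shares were 90.7% of 506 and 93.1% of 2415. Over all miRNAs the shares were 87.3% with UC and 88.8% with the kit. For miR-448-3p only 45.2% of 124 UC reads (95% Wilson interval 36.7 to 53.9%) and 33.5% of 451 kit reads (29.3 to 38.0%) were unaltered. One alteration made up most of the rest, a U recorded at the next-to-last position of the annotated strand, in 36.3% of UC reads (28.4 to 45.0%) and 44.8% of kit reads (40.3 to 49.4%). The table counts this position as -1, and the last annotated base as 0, a reading taken from the data: with it, 0 of 745 altered reads carried the same base as the hairpin at the recorded place, against 230 and 351 when the count was shifted by 1 base either way.

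In the kit libraries, each of which had at least 10 reads of miR-448-3p, the share with this U ran from 17.4 to 61.5% (median 42.9%), and in the 6 UC libraries with at least 10 reads from 30.0 to 50.0% (median 34.3%). The KA libraries with the kit had 17.4, 35.3 and 52.4% at 24 h and 47.1, 50.4 and 41.4% at 2 weeks, of which the first was below the range of the controls (33.3 to 61.5%). Intervals cover counting error only, since reads without molecular identifiers are not independent molecules. The strand shown above ends in the bases of the annotation, and the sequence of the altered reads beyond the recorded U is not given by the table.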

How the data were processed

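Small RNA libraries of hippocampal EEFs were sequenced by the authors, who trimmed adapters and mapped reads to miRBase v21 hairpins with the Chimira web server. The authors deposited, for each library, raw counts per mature miRNA and raw counts per pattern of altered bases, neither normalized. The assignment of reads matching several hairpins is not given in the sources used here. The 145 pairs of a listed miRNA and a library with reads had the same total in both tables.

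Counts were tested with edgeR 4.0.16 (quasi-likelihood, TMM factors, 1 coefficient per group, 12 libraries of a method, miRNAs with CPM over 1 in at least 6), and the methods were compared over 24 libraries with treatment and time as terms. Limma 3.58.1 and DESeq2 1.42.0 were alternatives, in R 4.3.3. The threshold was an adjusted p under 0.05. The fits were tested on simulated data. Correlations used log2(CPM + 2).

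The listed miRNAs were those of the request, and they, the lists of cell-type miRNAs and the tests were chosen with earlier results of these data known. The text names them, the other strands from these introns and the 5 miRNAs most correlated with miR-204-5p. Neighbours of miR-1298-5p and miR-448-3p, and the comparison of strands, were added after the data were seen. Replicates are separate pools of hippocampi.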

Additional observations from a re-analysis of the deposited data

How the results depend on the processing

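The rise of 2 listed miRNAs after KA with UC at 2 weeks was the result that depended most on the processing. The number called was 1 with relative log expression (RLE) factors, 0 with library size only, 1 with no filter, 0 with a filter of at least 10 reads in 6 libraries, 0 with limma-voom and 1 with DESeq2. Leaving out 1 library at a time it ranged from 0 to 2, being 0 without the control library of replicate 2 or 3 or the KA library of replicate 3, and 1 without the KA library of replicate 1. The log2 differences kept their sign in all of these, from 0.48 to 2.28 for miR-204-5p and from 1.12 to 1.70 for miR-1298-5p with libraries left out. The number called in the UC interaction ranged from 0 to 1, being 1 without the KA library of replicate 1 at 2 weeks.

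Whether replicate numbers pair the libraries is not said by the labels, and the main fits used no replicate block. Libraries of the same number deviated together (correlation over 0.1) in 4 of 18 UC pairs and 7 of 18 kit pairs. The median correlation with UC was 0.028 for the same number and -0.0075 for other pairs. With the kit these medians were 0.086 and -0.041. With the replicate block the number called with UC at 2 weeks stayed at 2 (adjusted p = 0.00977 for miR-204-5p and 0.0122 for miR-1298-5p by edgeR).

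The r of miR-204-5p with the summed Htr2c-intron miRNAs ranged from 0.29 to 0.66 with UC and from -0.092 to 0.34 with the kit with libraries left out. It was 0.022 without miR-1298-5p (UC), and -0.079 (UC) and -0.14 (kit) without the 2 farthest libraries. The kit minus UC difference of the strand ratios ranged from 2.18 to 3.34 (miR-204) and from 1.05 to 1.79 (miR-1298).

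Signs that turned belonged to differences that no test had called. For miR-1298-3p with UC at 24 h the log2 difference became 0.043 with library size only, 0.023 with limma-voom and 0.027 with the replicate block, and ranged from -0.37 to 0.30 with libraries left out. At 2 weeks it became -0.0066 with library size only and ranged from -0.24 to 0.51, and in the interaction it became -0.049 with library size only and ranged from -0.18 to 0.58. MiR-204-3p became 0.26 at 2 weeks and 0.18 in the interaction with limma-voom (UC). With libraries left out, the UC differences at 24 h ranged from -0.062 to 0.53 (miR-204-5p), from -0.21 to 0.57 (miR-204-3p) and from -0.47 to 0.57 (miR-448-3p). With the kit they ranged at 24 h from -0.90 to 0.032 (miR-204-5p), from -0.99 to 0.51 (miR-1298-5p) and from -0.26 to 0.40 (miR-448-3p), at 2 weeks from -0.23 to 0.50 (miR-204-5p), from -0.089 to 1.30 (miR-1298-5p) and from -0.54 to 0.018 (miR-764-3p), and in the interaction from -0.22 to 1.60 (miR-1298-5p). The cause of these shifts was not tested.

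With the kit against UC, 4 miRNAs were called under every alternative other than leaving out replicate 1, where 3 were. The members changed in 1 case: without replicate 3, miR-448-3p was called (adjusted p = 0.0309 by edgeR) and miR-1298-3p was not. Depth kept miR-211-5p and miR-764-5p, at 0 to 1 and 0 reads per library, out of every test with a filter on low values. It left miR-204-3p and miR-764-3p at 0 to 16 and 0 to 10 reads.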
